A study of Mus musculus with 9 samples.

Results

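RNA-Seq counts of Atm-/- mouse embryonic fibroblasts (MEFs) were set directly against those of Sirt6-/- MEFs, without the wild-type cells. MEFs are fibroblasts, the cells of connective tissue, cultured from dissociated mouse embryos. By their genotype labels, 3 samples were Atm-/- and 3 were Sirt6-/-, which makes 6 of the 9 samples of the series, and the other 3 were WT. All samples carry the strain label C57BL/6, and the cells were grown in DMEM with 10% FBS. The label of the first group gives only Atm-/-, while the study's cell list holds an immortalized Atm-/-; p53-/- line and the protocol names P53-/- and Atm-/-P53-/- mice without tying them to samples. That immortalized line and the study's immortalized Sirt6-/- line came from different laboratories, primary MEFs were also used in the study, and the labels do not say which of these were sequenced, so each group may be a single line. The genotype at Atm and at Sirt6, the p53 status and the origin of the cells can therefore not be told apart in any difference below. The labels do not say whether samples of 1 genotype were separate cultures, so p-values measure only the spread between these samples, which may be technical.

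ATM is a protein kinase that senses DNA double-strand breaks and signals to p53, to the checkpoint kinases and to repair factors. SIRT6 is a nuclear, NAD-dependent deacylase that acts on histone H3 at promoters and telomeres, and it is known for restraining glycolytic and NF-kB target genes. Fibroblasts make the collagens, proteoglycans and elastic fibres of connective tissue, and they keep a record of their place of origin in the body in the Hox genes they express. The direct comparison asks which gene families separate the knockout lines from each other.

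The 6 libraries were alike in depth, with 32187040 to 33259701 counted reads each over 24341 listed genes. At this depth a sum of 3 reads in a library corresponds to 0.0902 to 0.0932 CPM, the count scaled to a common library size. Samples of 1 genotype correlated with r between 0.9969 and 0.9973 on the log2 CPM scale across genes, and samples of different genotypes with r between 0.901 and 0.9065. The 6 pairs of samples within a genotype differed by a chi-square of 5.11 to 6.66 per gene, above the value of about 1 that sampling alone gives, so none looked like a library deposited in duplicate. The floor of 3 reads covers counting error only.

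The targeted genes were checked first. Sirt6 had 424, 389 and 364 reads in the Atm-/- samples against 4, 5 and 7 in the Sirt6-/- samples. The groups did not overlap, and the library labels hold for Sirt6. Atm had 3768, 3564 and 3443 reads in the Atm-/- samples against 2390, 2343 and 2072 in the Sirt6-/- samples, so that its gene count was 1.51-fold higher in the cells labelled Atm-/- (edgeR adjusted p = 1.12e-08, from its quasi-likelihood test after Benjamini-Hochberg correction). A count over the whole gene does not show which exons the reads came from, and the Atm count therefore does not check the label. Trp53, which encodes p53, had 806, 946 and 928 reads in the Atm-/- samples against 9081, 9127 and 9218 in the Sirt6-/- samples. It was 10.7-fold lower in Atm-/- (log2 fold change -3.42 ± 0.06 SE, edgeR adjusted p = 7.88e-22), with no overlap between the groups.

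Of 13460 genes that passed the filter on low counts, 10205 differed at an adjusted p under 0.05, which is 75.8% of those tested. The calls were even in direction, with 5116 genes (38.0%) higher in Atm-/- and 5089 (37.8%) higher in Sirt6-/-. At least 2-fold differences were seen for 1523 genes (11.3%) higher in Atm-/- and 1910 genes (14.2%) higher in Sirt6-/-, and at least 8-fold differences for 587 and 409 genes. The 3 samples of each genotype did not overlap in 10518 genes, or 78.1%. The median log2 fold change of all tested genes, Atm-/- over Sirt6-/-, was 0.0021, and its median size was 0.494. With this background, a family of genes stands apart only where its shares differ from 38.0% and 37.8%, and below each family is given by how many of its tested members were higher in either line. A gene passes the filter when it is counted in at least 1 of the genotypes, so a gene that only 1 line expresses had to differ once it was tested.

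**Figure D1:**
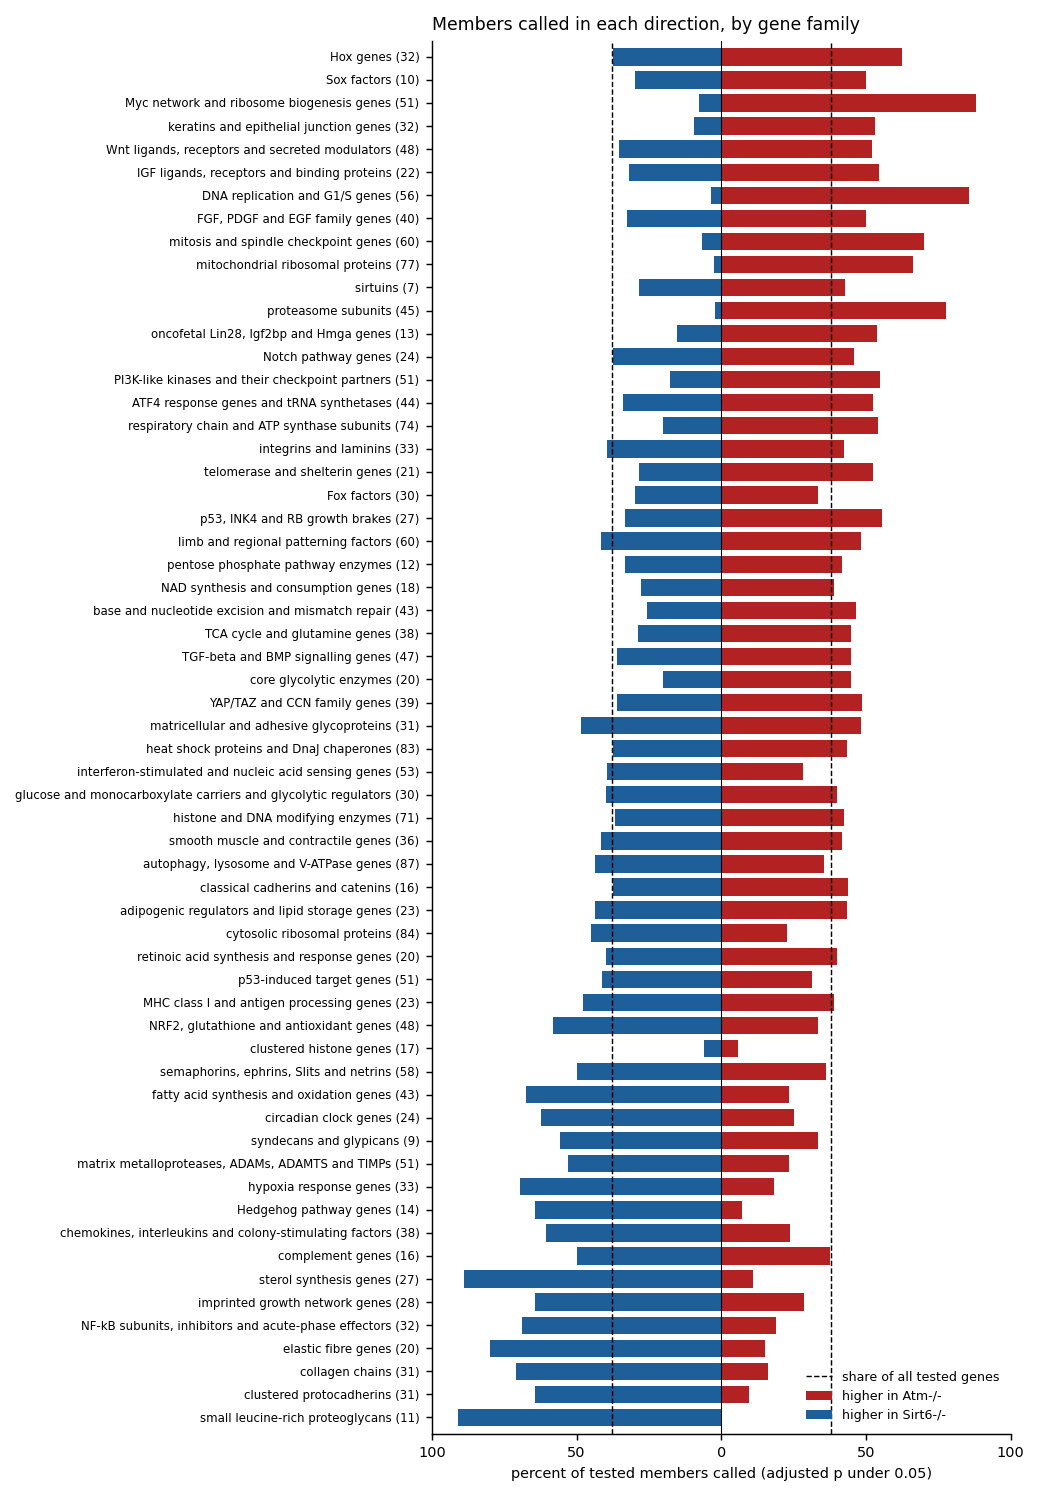
Share of the tested members of each of 60 gene families that were called higher in Atm-/- (right, red) or higher in Sirt6-/- (left, blue), in percent, ordered by the median log2 fold change; the number of tested members is in brackets and the dashed lines mark the shares of all tested genes. Myc network and ribosome biogenesis genes reach 88.2% on the Atm-/- side, while small leucine-rich proteoglycans reach 90.9% and sterol synthesis genes 88.9% on the Sirt6-/- side.

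Of the 60 families, 32 had more members higher in Atm-/- than in Sirt6-/-. In 13 families the mean and the median of the members' log2 fold changes differed in sign, each taken relative to that of all tested genes. These families are described by their named genes rather than by a direction. They are the matricellular glycoproteins, cadherins, retinoic acid genes, complement genes, MHC class I genes, growth brakes, histone and DNA modifying enzymes, glucose and monocarboxylate carriers, TCA cycle genes, ATF4 response genes, heat shock proteins, smooth muscle genes and YAP/TAZ genes.

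The genes with the largest differences were mostly expressed in 1 of the lines only. Among well counted genes higher in Sirt6-/-, Nos2, the inducible nitric oxide synthase, had 17, 8 and 8 reads in the Atm-/- samples against 9503, 9647 and 11102 in the Sirt6-/- samples, a log2 fold change of -9.89 ± 0.11. Igfbp2, a secreted binding protein for insulin-like growth factors, had 82, 70 and 55 reads against 25479, 26346 and 27943, a 403-fold difference. Col2a1, the collagen of cartilage, had 24, 27 and 31 reads against 9082, 7914 and 9890. In all 3 genes the Atm-/- samples lay far below the Sirt6-/- samples. The others of the 10 lowest values were the long RNA gene 9330188P03Rik, with 0 reads in every Atm-/- sample and 509, 554 and 517 in the Sirt6-/- samples, Vit, Ntrk3, Fmo1, Jph2, Myct1 and Lipo1. Counted against a floor of 3 reads over the 3 Atm-/- samples together, 9330188P03Rik was at least 552-fold higher in Sirt6-/-.

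In the other direction, Gdf10, a BMP-like ligand, had 1599, 2081 and 1506 reads in the Atm-/- samples against 1, 0 and 0 in the Sirt6-/- samples. Igf2, the fetal insulin-like growth factor, had 12520, 12827 and 12652 reads against 19, 41 and 23, a 435-fold difference (log2 fold change 8.76 ± 0.10, edgeR adjusted p = 1.93e-24). Gdf10 was near its floor in the Sirt6-/- line, whereas Igf2 was low there but above the floor of 3 reads in each sample. The remaining genes of the 10 highest values included transcription factors of position and organ identity, namely Foxa2, Pitx1, Tbx20, Hoxc11 and Hoxa11, besides Mab21l1, Fgf13 and Il22ra1. Pitx1, which specifies the hindlimb, had 1221, 1285 and 1128 reads in Atm-/- against 4, 0 and 0 in Sirt6-/-. Tbx20, a T-box factor known from the heart, had 1706, 1880 and 1908 reads against 4, 6 and 2. In these bulk samples, fewer cells of a type and less RNA per cell cannot be told apart.

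Hox genes lie in 4 clusters, A to D, in which genes of low paralogue number are used towards the head and genes of high number towards the tail and the ends of the limbs. Of 39 listed Hox genes 32 were tested, and every tested one differed, 20 (62.5%) higher in Atm-/- and 12 (37.5%) higher in Sirt6-/-. The lines differed by position within the clusters. Summed over paralogues 1 to 8, the Atm-/- samples held 2378, 2487 and 2373 reads and the Sirt6-/- samples 4960, 4816 and 5024. This sum was higher in Sirt6-/-, where Hoxa3 and Hoxb3 had the largest counts, while single genes went both ways. Summed over paralogues 9 to 13, the Atm-/- samples held 3828, 4054 and 3369 reads and the Sirt6-/- samples 236, 261 and 218, and the order was turned. In the first group 8 of 19 tested genes were higher in Atm-/- and 11 higher in Sirt6-/-, with a median log2 fold change of -0.84, and in the second group 12 of 13 were higher in Atm-/-, with a median of 7.05. Most tested genes of paralogues 9 to 13 had few or no reads in Sirt6-/- and passed the filter only through Atm-/-. Their direction was thus set beforehand. This division was chosen after the values were seen and was not tested.

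**Figure D2:**
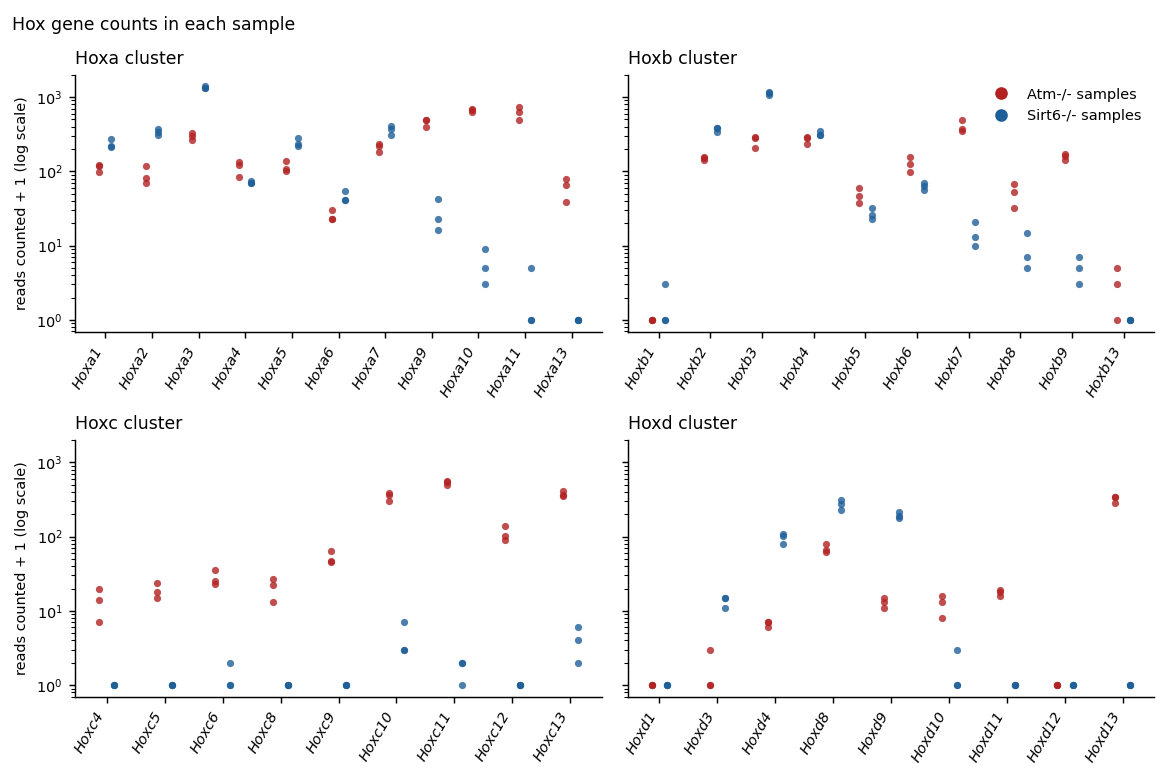
Reads counted plus 1 (log scale) for each listed Hox gene in each of the 3 Atm-/- samples (red) and 3 Sirt6-/- samples (blue), in 4 panels by cluster, with genes in order of paralogue number. From paralogue 9 onward the Sirt6-/- samples have fewer than 50 reads everywhere except at Hoxd9, and the Hoxc panel has almost no reads in Sirt6-/-.

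The HoxC cluster was silent or nearly so in the Sirt6-/- line. Its 9 genes together gave 1490, 1574 and 1434 reads in the Atm-/- samples against 6, 7 and 9 in the Sirt6-/- samples. Each of its 8 tested genes was higher in Atm-/-, but they passed the filter only through the Atm-/- samples, so this direction was set beforehand. In the other clusters both directions occurred, with 5 of 11 tested HoxA genes, 5 of 8 HoxB genes and 2 of 5 HoxD genes higher in Atm-/-. Hoxa10 had 671, 700 and 632 reads in Atm-/- against 8, 4 and 2 in Sirt6-/-. Hoxa3, at the other end of the same cluster, had 297, 262 and 327 reads in Atm-/- against 1324, 1305 and 1400 in Sirt6-/-, a log2 fold change of -2.25 ± 0.09. Hoxb3 behaved like Hoxa3, with 206, 284 and 290 against 1081, 1162 and 1119 reads. Hoxd13, the most distal limb gene, had 339, 336 and 285 reads in Atm-/- and 0 in each Sirt6-/- sample, whereas Hoxd9 had 14, 12 and 10 against 178, 216 and 189 and was the exception among the distal genes; both were named after their values were seen.

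Other factors of regional identity split evenly. Of 60 tested limb and regional patterning factors, 29 (48.3%) were higher in Atm-/- and 25 (41.7%) in Sirt6-/-, with 21 and 20 of them at least 2-fold. Gata4, a heart and endoderm factor, had 1233, 1398 and 1408 reads in Atm-/- against 3, 2 and 7 in Sirt6-/-. On the Sirt6-/- side, Pax8, a factor of kidney and thyroid, had 24, 45 and 30 reads against 4881, 5019 and 5563, a log2 fold change of -7.35 ± 0.10. Zic1 and Pax9, which pattern the dorsal neural tube and the pharyngeal pouches, were 72.8-fold and 53.8-fold higher in Sirt6-/-. Sox2, a factor of stem and neural progenitor cells, had 638, 783 and 546 reads in Atm-/- against 0, 6 and 0 in Sirt6-/-. Of the 60 factors, which do not include Sox2, 19 differed by less than 2-fold and 6 were not called. Of 30 tested Fox factors, 10 were higher in Atm-/- and 9 in Sirt6-/-, a smaller share in both directions than over all genes.

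Collagen genes were mostly higher in Sirt6-/-. Of 44 listed collagen chains 31 were tested, 22 (71.0%) higher in Sirt6-/- and 5 (16.1%) higher in Atm-/-, with a median log2 fold change of -1.51. Col1a2, the alpha 2 chain of the type I collagen that makes up most of connective tissue, had 31151, 31257 and 29109 reads in the Atm-/- samples against 255516, 244162 and 267688 in the Sirt6-/- samples. It was 8.79-fold higher in Sirt6-/- (log2 fold change -3.14 ± 0.03, edgeR adjusted p = 1.93e-24) with no overlap. Its partner Col1a1 differed less, at 1.61-fold, and per length of transcript the order of the partners was turned: in Sirt6-/- cells Col1a2 was at 1520 ± 44.1 RPKM (reads scaled to transcript length and library size, SD, n = 3) and Col1a1 at 507 ± 13.6, and in Atm-/- cells Col1a2 was at 180 ± 4.52 and Col1a1 at 329 ± 19. Col3a1, which co-assembles with type I fibres, was 10.5-fold higher in Sirt6-/-, and Col12a1, which coats them, was 38.8-fold higher.

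Type IV collagen, the network former of basement membranes, went the other way. Col4a1 had 12994, 12808 and 14062 reads in Atm-/- against 174, 179 and 151 in Sirt6-/-, a 75.4-fold difference (log2 fold change 6.24 ± 0.07). Col4a2 had 8063, 7948 and 8846 reads against 133, 170 and 106. The pair lies head to head on chromosome 8 (mm10), Col4a1 at chr8:11198423-11312826 on the minus strand and Col4a2 at chr8:11312805-11449287 on the plus strand. Col4a6, on the X chromosome, was 5.10-fold higher in Atm-/-. Of 4 tested type IV chains 3 were higher in Atm-/-, and of the 27 other tested chains 2 were, against 21 higher in Sirt6-/-; this division was made after the values were seen.

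Small leucine-rich proteoglycans, which bind collagen fibrils and set their spacing, had 10 of 11 tested members higher in Sirt6-/- (90.9%), all 10 at least 2-fold, and 0 higher in Atm-/-. Asporin (Aspn) had 102, 105 and 66 reads in Atm-/- against 6032, 6189 and 7031 in Sirt6-/-, a 73.8-fold difference. Decorin (Dcn) had 3706, 4077 and 3585 reads against 24256, 29681 and 27006, and biglycan (Bgn) 30199, 29028 and 28933 against 81508, 82116 and 87799. Osteoglycin (Ogn) was 13.4-fold higher. The proteoglycans differed in size of effect, from 2.99-fold for Bgn upward among those named, while their direction was shared.

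Elastic fibre genes had 16 of 20 tested members higher in Sirt6-/- (80.0%) and 3 higher in Atm-/-. Lox, the lysyl oxidase that cross-links elastin and collagen, had 19556, 16979 and 19143 reads in Atm-/- against 130410, 132103 and 138075 in Sirt6-/-, a log2 fold change of -2.91 ± 0.05. Mfap2 and Fbln5, a microfibril glycoprotein and an elastin-binding fibulin, were 62.5-fold and 5.77-fold higher in Sirt6-/-. Elastin itself (Eln) had at most 4 reads in any of the 6 samples and was not tested. The 3 genes higher in Atm-/- were Fbln2 and Loxl3, by 1.19-fold and 1.36-fold, and Efemp1, a fibulin family member with 1628, 1627 and 1452 reads in Atm-/- against 32, 27 and 25 in Sirt6-/-.

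**Figure D3:**
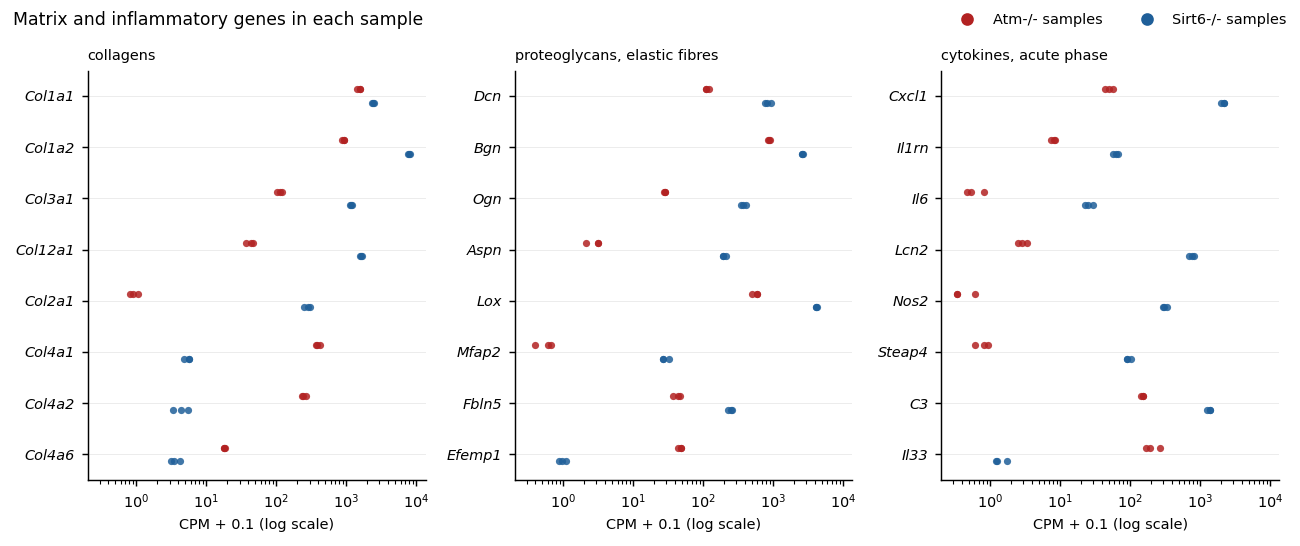
CPM plus 0.1 (log scale) of 8 collagen genes, 8 proteoglycan or elastic fibre genes and 8 cytokine or acute-phase genes in each of the 3 Atm-/- samples (red) and 3 Sirt6-/- samples (blue). Sirt6-/- samples sit to the right for most genes, and Col4a1, Col4a2, Col4a6, Efemp1 and Il33 are the genes with the Atm-/- samples to the right.

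The enzymes that remodel matrix had 27 of 51 tested members higher in Sirt6-/- (52.9%) and 12 higher in Atm-/- (23.5%). Adamts5, an aggrecanase, was 8.36-fold higher in Sirt6-/-, and Reck, a membrane-bound inhibitor of matrix metalloproteases, had 32, 52 and 51 reads in Atm-/- against 649, 723 and 720. The protease cluster on chromosome 9 holds 5 tested genes of this family, of which Mmp8, Mmp10, Mmp3 and Mmp13 were higher in Atm-/- and Mmp12, with 58, 37 and 34 reads against 48, 45 and 26, was not called. Mmp10 (stromelysin 2, chr9:7502352-7510240) had 1833, 2017 and 1825 reads against 26, 26 and 6. Mmp3 (stromelysin 1, chr9:7445822-7455975) and Mmp13 (collagenase 3, chr9:7272514-7283331) were each 17.8-fold higher in Atm-/-, and Mmp8, like Mmp12 named after its values were seen, had 23, 24 and 19 reads against 2, 2 and 0. Acan, the aggrecan that Adamts5 cleaves, had 2146, 1706 and 2059 reads in Atm-/- against 54, 42 and 62 in Sirt6-/-.

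Cell contact genes differed by class. Keratins and epithelial junction genes had 17 of 32 tested members higher in Atm-/- (53.1%) and 3 higher in Sirt6-/- (9.4%). Cdh3, the classical P-cadherin, had 1580, 1496 and 1631 reads in Atm-/- against 28, 23 and 38 in Sirt6-/-, and Cdh11, the cadherin of mesenchyme, had 3468, 3134 and 3351 against 20818, 19637 and 21562. Of the junction proteins, F11r (JAM-A) was 35.3-fold higher in Atm-/-, Cgn (cingulin) 15.5-fold higher and Krt19 12.2-fold higher, while Cldn1 (claudin 1) was 18.6-fold higher in Sirt6-/-. The markers of epithelium summed to 95.1 to 102.2 CPM in Atm-/- and 23.3 to 27.7 CPM in Sirt6-/-, and their part in these results was not tested.

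Clustered protocadherins, adhesion molecules best known from neurons, which use them in combinations, had 20 of 31 tested members higher in Sirt6-/- (64.5%) and 3 higher in Atm-/- (9.7%). Of 14 tested beta genes 13 were higher in Sirt6-/- and none higher in Atm-/-, with a median log2 fold change of -2.33, whereas of 17 gamma genes 7 were higher in Sirt6-/- and 3 in Atm-/-; the classes were compared after their values were seen. Pcdhgb6 had 24, 28 and 37 reads in Atm-/- against 997, 1051 and 998 in Sirt6-/-. Gamma genes share their last exons, so how reads there were assigned is uncertain. Among guidance genes, 29 of 58 tested were higher in Sirt6-/- (50%) and 21 in Atm-/- (36.2%). The Slit receptors Robo1 and Robo2 were 32.6-fold and 36.7-fold higher in Sirt6-/-. The semaphorin Sema3d was 87.7-fold higher in Atm-/- and Plxna4, a plexin receptor, 47.0-fold higher. The semaphorin Sema6d was higher in Atm-/- by a log2 fold change of 6.38, which became 7.12 without Sirt6-/- replicate 3.

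The insulin-like growth factor (IGF) system consists of ligands, their receptors and binding proteins that hold the ligands in the extracellular space. Of 22 tested members, 12 (54.5%) were higher in Atm-/- and 7 (31.8%) in Sirt6-/-. Both ligands were higher in Atm-/-: Igf2 as given above, and Igf1 with 121, 169 and 155 reads against 70, 53 and 66. The receptors differed little, with Igf1r 1.51-fold and Igf2r 1.20-fold higher in Sirt6-/-, both called. The binding proteins went both ways. Igfbp3 (877, 928 and 930 reads against 35, 50 and 36) and Igfbp4 (15279, 17256 and 17717 against 2116, 2043 and 2368) were higher in Atm-/-, and Igfbp2 and Igfbp7 were higher in Sirt6-/-. Per length, Igfbp2 was at 612 ± 17.9 RPKM in Sirt6-/- cells and Igfbp4 at 247 ± 20.9 RPKM in Atm-/- cells (SD, n = 3), and these were the leading binding proteins of either line among the 4 named here. Grb10, an adaptor that dampens insulin and IGF receptor signals, had 9670, 9393 and 9238 reads in Atm-/- against 141, 146 and 139 in Sirt6-/-, a log2 fold change of 5.98 ± 0.06.

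Igf2 and Grb10 are imprinted, that is, expressed from the copy of 1 parent. In the imprinted growth network 28 of 34 listed genes were tested, 18 (64.3%) higher in Sirt6-/- and 8 (28.6%) higher in Atm-/-, while the genes with the largest differences, Igf2, Dlk1 and Grb10, were higher in Atm-/-. Neighbouring imprinted genes did not always go together. On chromosome 7, Igf2 (chr7:142650766-142666816) and H19 (chr7:142575529-142578143), a long RNA expressed from the opposite parental copy, were both higher in Atm-/-, H19 with 124, 172 and 115 reads against 8, 8 and 2. In the domain on chromosome 12, Dlk1 (chr12:109452823-109463336), a membrane ligand of fetal tissues, had 930, 1146 and 923 reads in Atm-/- against 2, 10 and 9 in Sirt6-/-. Its neighbours went the other way. Meg3 (chr12:109541001-109571726), a long RNA of the maternal copy, had 249, 261 and 251 reads in Atm-/- against 7024, 6908 and 7466 in Sirt6-/-. Rian and Mirg, the long RNAs that follow Meg3, were 25.8-fold and 23-fold higher in Sirt6-/-, and Dio3 at the far end (chr12:110279068-110281097) was 8.90-fold higher. Peg10, Ndn and Mest, expressed from the paternal copy, were 5.61-fold, 7.18-fold and 12.4-fold higher in Sirt6-/-.

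**Figure D4:**
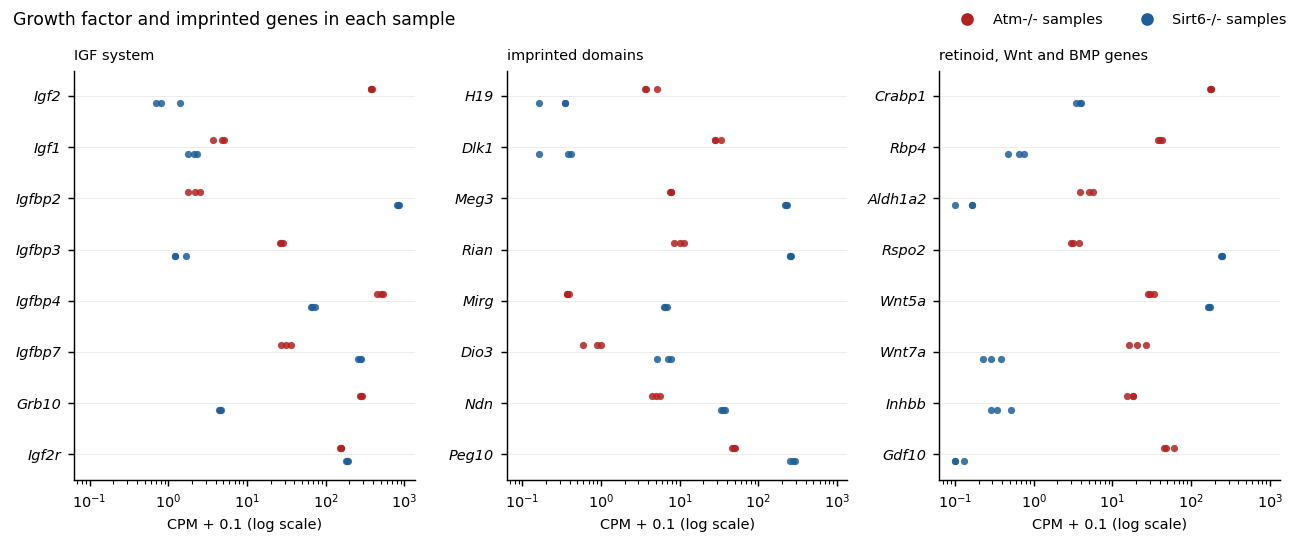
CPM plus 0.1 (log scale) of 8 IGF system genes, 8 genes of imprinted domains and 8 retinoid, Wnt and BMP genes in each of the 3 Atm-/- samples (red) and 3 Sirt6-/- samples (blue). Igf2 and Igfbp2 lie at opposite ends, and Dlk1 and Meg3 of the same imprinted domain point in opposite directions.

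Genes of the fetal growth programme around Lin28 had 7 of 13 tested members higher in Atm-/- (53.8%) and 2 higher in Sirt6-/- (15.4%). Lin28b, which blocks let-7 maturation, had 74, 81 and 57 reads in Atm-/- against 0, 2 and 0 in Sirt6-/-. The chromatin proteins Hmga1 and Hmga2, which let-7 restrains, were 4.21-fold and 2.18-fold higher in Atm-/-, with 25393, 27887 and 27438 reads of Hmga1 against 6062, 6305 and 5897.

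Wnt ligands, receptors and secreted modulators had 25 of 48 tested members higher in Atm-/- (52.1%) and 17 higher in Sirt6-/- (35.4%), and the ligands went both ways. Wnt7a, a ligand of limb dorsal ectoderm, had 692, 547 and 866 reads in Atm-/- against 9, 4 and 6 in Sirt6-/-. Wnt5a, a ligand of limb outgrowth that both lines expressed, had 1129, 953 and 994 reads in Atm-/- against 5186, 5377 and 5711 in Sirt6-/-. Rspo2, an R-spondin that amplifies Wnt signals, had 104, 124 and 95 reads against 7551, 7744 and 8051, a log2 fold change of -6.24 ± 0.07.

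TGF-beta and BMP genes were close to the background in both directions, with 21 of 47 tested members higher in Atm-/- and 17 higher in Sirt6-/-. Inhbb, the activin B subunit, was 60.5-fold higher in Atm-/-, and the secreted Fstl1 was 8.95-fold higher in Sirt6-/-. In the FGF, PDGF and EGF families 20 of 40 tested members were higher in Atm-/- (50%) and 13 in Sirt6-/- (32.5%). Fgf5 had 2005, 1797 and 2039 reads in Atm-/- against 10, 11 and 10 in Sirt6-/-, and Fgf7, the keratinocyte growth factor of stroma, had 2221, 2328 and 1996 against 15078, 15721 and 16803. The receptor Fgfr1 was 6.55-fold higher in Sirt6-/-, while Dusp4, a phosphatase that MAP kinase activity induces, was 19.9-fold higher in Atm-/-.

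Hedgehog pathway genes had 9 of 14 tested members higher in Sirt6-/- (64.3%) and 1 higher in Atm-/-. The co-receptors Boc and Gas1 were 7.60-fold and 5.59-fold higher in Sirt6-/-, and Gli1, the target gene used as a readout of the pathway, had 20, 32 and 31 reads in Atm-/- against 95, 90 and 114 in Sirt6-/-. The gene that was higher in Atm-/- was Hhip, the antagonist that binds Hedgehog ligands, with 916, 883 and 752 reads against 11, 2 and 16. Retinoic acid genes went both ways, with 8 of 20 tested members higher in each line. Among those that carry or make retinoic acid and its precursors, the cellular binding protein Crabp1 had 5930, 6171 and 5879 reads against 121, 122 and 108, Rbp4 was 75.4-fold higher, Crabp2 34.4-fold higher in Atm-/-, and the synthesizing enzyme Aldh1a2 had 129, 192 and 161 reads against 2, 2 and 0. The retinol dehydrogenase Rdh10 was 1.64-fold higher in Sirt6-/-. The enzymes that break retinoic acid down differed in direction, with Cyp26b1 9.30-fold higher in Sirt6-/- and Cyp26a1 at 52, 39 and 41 reads in Atm-/- against 0, 0 and 4.

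The receptors and the ligands of the Notch pathway differed in opposite directions, a division made after the values were seen. Notch receptors on the cell surface are activated by ligands on neighbouring cells and then switch on Hes and Hey genes through Rbpj. Of 24 tested members, 11 (45.8%) were higher in Atm-/- and 9 (37.5%) in Sirt6-/-. All 4 receptors were higher in Sirt6-/-, Notch2 with 3448, 3358 and 3234 reads in Atm-/- against 8519, 8423 and 8069 in Sirt6-/-, and Notch1, Notch3 and Notch4 by 2.80-fold, 2.05-fold and 3.60-fold. Rbpj, the DNA-binding partner of the receptors, was 1.46-fold higher in Sirt6-/-. The tested ligands were higher in Atm-/-: Jag1 was 1.63-fold higher, Jag2 had 137, 214 and 150 reads against 7, 4 and 4, and Dll1 had 122, 90 and 74 against 7, 7 and 8. The fringes and coactivators went both ways, Lfng and Maml1 being 2.39-fold and 1.38-fold higher in Atm-/- and Rfng and Maml2 1.35-fold and 1.17-fold higher in Sirt6-/-. Of the Hes and Hey genes, Hes1 had 494, 473 and 473 reads in Atm-/- against 162, 133 and 158 in Sirt6-/-. Hes6 was 1.59-fold higher in Atm-/-, and Hey1 and Hey2 were not called. The groups did not overlap in the receptors and ligands named here, nor did they in 78.1% of all tested genes.

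Chemokines, interleukins and colony-stimulating factors had 23 of 38 tested members higher in Sirt6-/- (60.5%) and 9 higher in Atm-/- (23.7%). Cxcl1, a neutrophil chemokine, had 1698, 1981 and 1460 reads in Atm-/- against 64304, 70502 and 72109 in Sirt6-/- (log2 fold change -5.40 ± 0.07, edgeR adjusted p = 2.07e-23). Il6 had 24, 15 and 12 reads in Atm-/- against 785, 948 and 729 in Sirt6-/-, and the interleukin 1 antagonist Il1rn was 7.84-fold higher in Sirt6-/-. The direction did not hold for each member. Il33, an interleukin stored in the nucleus, had 6427, 9054 and 5625 reads in Atm-/- against 36, 52 and 38 in Sirt6-/-, and Kitl, the stem cell factor, and Cxcl16 were 6.25-fold and 4.2-fold higher in Atm-/-.

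NF-kB is a family of dimeric factors that are held by inhibitors in the cytoplasm and drive cytokine and acute-phase genes once released. Of 32 tested subunits, inhibitors and effectors, 22 (68.8%) were higher in Sirt6-/- and 6 (18.8%) in Atm-/-, with a median log2 fold change of -0.92 and a mean of -1.92. The effectors held the large values. Lcn2, the acute-phase lipocalin, had 94, 110 and 79 reads in Atm-/- against 21882, 25887 and 25083 in Sirt6-/-, and Steap4, a metalloreductase that cytokines induce, had 17, 28 and 24 against 2885, 2862 and 3327. The prostaglandin synthases Ptgs1 and Ptgs2 were 3.18-fold and 2.73-fold higher in Atm-/-, with 13129, 12066 and 13485 reads of Ptgs2 against 4628, 4821 and 4057. Tnfaip3, an inhibitor that NF-kB itself induces, was 1.54-fold higher in Atm-/-.

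The sequence before the gene start was searched for the kappaB core GGGANTTTC on either strand, in the promoter sequences of RefSeq (GRCm38.p6, 250 bases before each start). Not every chromosome was searched, and this core was found for 1.11% of the 27025 genes that were. It was found for 5 of 26 tested chemokine and cytokine genes that had a promoter sequence (19.2%), namely Cxcl1, Cxcl3, Il6 and Csf1, all higher in Sirt6-/-, and Il16, higher in Atm-/-. In the NF-kB family it was found for Nfkb2 and Nfkbia, or 2 of 25 (8.0%), both higher in Sirt6-/-. These are matches of letters, not measured binding, and matches of different motifs may share bases. The 120 bases before the start of the following genes, all on the plus strand of chromosome 5, are shown because these genes were far apart between the lines, with the core in capitals.
Cxcl1, chr5:90891125-90891244: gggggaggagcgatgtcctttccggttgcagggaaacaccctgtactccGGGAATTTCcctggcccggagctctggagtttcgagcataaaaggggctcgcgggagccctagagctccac
Cxcl3, chr5:90785981-90786100: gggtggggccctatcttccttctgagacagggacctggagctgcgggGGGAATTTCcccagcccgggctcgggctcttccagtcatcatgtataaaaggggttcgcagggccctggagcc
Il6, chr5:30012994-30013113: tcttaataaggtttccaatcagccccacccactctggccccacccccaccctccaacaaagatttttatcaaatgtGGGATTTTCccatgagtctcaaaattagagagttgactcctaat
In Cxcl1 and Cxcl3 the core began 71 and 73 bases before the start and had the same letters, and in Il6 it began 44 bases before the start. Cxcl3, which lies near Cxcl1 and was named after its values were seen, had 0 reads in each Atm-/- sample and 40, 30 and 41 in the Sirt6-/- samples.

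Complement genes had 8 of 16 tested members higher in Sirt6-/-, each at least 2-fold, and 6 higher in Atm-/-. C3, the central component, had 5115, 5193 and 4776 reads in Atm-/- against 40608, 43640 and 45788 in Sirt6-/-. Cd55, the membrane regulator, had 1019, 966 and 899 reads in Atm-/- against 0, 16 and 0 in Sirt6-/-, and Clu, which blocks the terminal complex, was 9.53-fold higher in Atm-/-.

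Interferon-stimulated and nucleic acid sensing genes showed no common direction. Of 53 tested, 15 (28.3%) were higher in Atm-/- and 21 (39.6%) in Sirt6-/-. Ifit3, which binds viral RNA complexes, had 68, 93 and 67 reads in Atm-/- against 1157, 1208 and 1220 in Sirt6-/-; it has a close copy with which reads may have been shared. Gbp2 and Stat2 were 7.82-fold and 2.68-fold higher in Sirt6-/-, and Bst2 and Tmem173, which encodes the DNA sensing adaptor STING, were 3.54-fold and 3.18-fold higher in Atm-/-. Ifit1, a neighbour and relative of Ifit3 that was named after its values were seen, had 264, 180 and 177 reads in Atm-/- against 52, 37 and 87 in Sirt6-/-. The core of the interferon-stimulated response element, AAANNGAAA on either strand, was found before 10.79% of the genes searched. It was found before 20 of 41 tested family members with a promoter sequence (48.8%), of which 7 were higher in Atm-/-, 9 were higher in Sirt6-/- and 4 were not called. It stands before both Ifit3 and Ifit1, which differed in opposite directions, and it is shown here in capitals as it reads on the plus strand of chromosome 19, where the core lies on the minus strand.
Ifit3, chr19:34583387-34583506: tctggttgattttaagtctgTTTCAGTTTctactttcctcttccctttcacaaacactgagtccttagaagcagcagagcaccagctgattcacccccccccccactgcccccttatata
Ifit1, chr19:34640769-34640888: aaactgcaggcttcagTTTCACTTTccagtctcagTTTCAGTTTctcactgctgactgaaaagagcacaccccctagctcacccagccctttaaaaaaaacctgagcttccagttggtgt
The window of Ifit1 ends at the gene start and holds 2 matches, and that of Ifit3, which ends 22 bases before the start, holds 1.

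Trp53 itself was 10.7-fold lower in Atm-/-, and the genes known to be induced by p53 went both ways, in shares not far from those of all genes. Of 51 tested p53-induced genes, 16 (31.4%) were higher in Atm-/- and 21 (41.2%) in Sirt6-/-, against 38.0% and 37.8% of all tested genes. The members' median log2 fold change was -0.17 and its median size 0.467, against 0.494 over all tested genes. Of the members, 37 differed by less than 2-fold. Perp and Fas, a desmosomal effector and a death receptor, were 11-fold and 8.41-fold higher in Sirt6-/-, and Sesn1 was 3.04-fold higher. Cdkn1a, which encodes the cell cycle inhibitor p21, had 427, 553 and 454 reads in Atm-/- against 200, 205 and 211 in Sirt6-/-. It was higher in Atm-/- (log2 fold change 1.15 ± 0.12, edgeR adjusted p = 3.68e-08). Mdm2, the ligase that degrades p53, was 1.65-fold higher and Crip2 8.02-fold higher in Atm-/-. Cdkn2a, the locus of p16 and p19ARF, had 7482, 8046 and 7165 reads in Atm-/- against 5642, 5395 and 6348 in Sirt6-/-. The p53 relative Trp63 had 16, 0 and 15 reads against 367, 398 and 411.

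The kinases related to ATM and their checkpoint partners differed in small steps. All 51 were tested, 28 (54.9%) higher in Atm-/- and 9 (17.6%) in Sirt6-/-, and 49 of the 51 differed by less than 2-fold. Prkdc, the DNA-PK catalytic subunit and a relative of ATM, had 757, 622 and 688 reads in Atm-/- against 1519, 1464 and 1391 in Sirt6-/-, a log2 fold change of -1.15 ± 0.08. The helicase gene Wrn was 1.67-fold higher in Sirt6-/-, and Hus1 of the 9-1-1 clamp and Dclre1c (Artemis) were 1.70-fold and 1.66-fold higher in Atm-/-. Of 43 tested base excision, nucleotide excision and mismatch repair genes, 20 (46.5%) were higher in Atm-/- and 11 (25.6%) in Sirt6-/-. Telomerase and shelterin genes had 11 of 21 members higher in Atm-/- and 6 higher in Sirt6-/-.

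Genes of DNA replication and of mitosis were mostly higher in Atm-/-, by small factors. Of 56 replication and G1/S genes 48 (85.7%) were higher in Atm-/- and 2 (3.6%) in Sirt6-/-, with a median log2 fold change of 0.46, and 54 of them differed by less than 2-fold. Orc2 of the origin recognition complex was 2.72-fold higher in Atm-/-, with 4164, 3770 and 4001 reads against 1446, 1398 and 1346. The ribonucleotide reductase gene Rrm2 was 1.93-fold higher. Orc3, a partner of Orc2, was 1.54-fold higher in Sirt6-/-. Of 60 mitosis and spindle checkpoint genes 42 (70.0%) were higher in Atm-/- and 4 (6.7%) in Sirt6-/-, none by 2-fold or more. Ska1, Nek2 and Aurka, which act at kinetochores and centrosomes, were 1.98-fold, 1.95-fold and 1.90-fold higher. The replication genes together made up 7977.5 to 8135.4 CPM in Atm-/- and 5675.9 to 5922.8 CPM in Sirt6-/-.

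**Figure D5:**
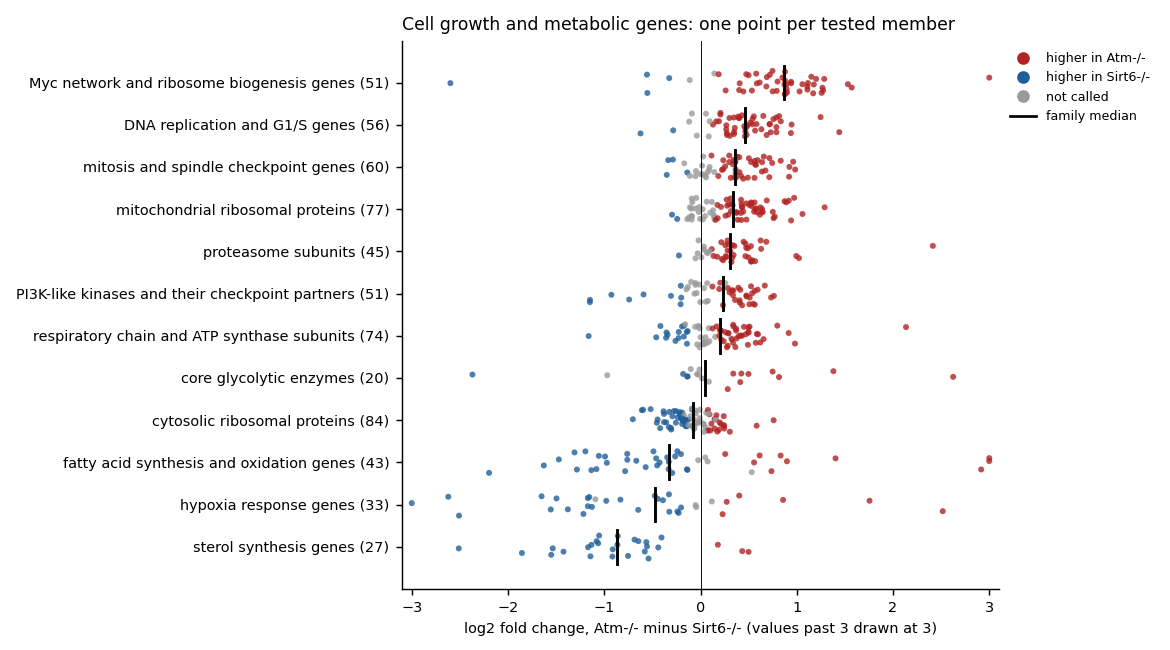
Log2 fold change, Atm-/- minus Sirt6-/-, of each tested member of 12 families of cell growth and metabolism; red points are higher in Atm-/-, blue points higher in Sirt6-/-, grey points not called, bars mark family medians and values past 3 are drawn at 3. Myc network and ribosome biogenesis genes have their median at 0.87 and sterol synthesis genes at -0.86.

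Genes that build ribosomes and proteasomes shared this direction. The Myc network and ribosome biogenesis genes had 45 of 51 tested members higher in Atm-/- (88.2%) and 4 higher in Sirt6-/-, with a median log2 fold change of 0.87. Rrp12 and Heatr1, which process the small subunit RNA, were 2.97-fold and 2.89-fold higher in Atm-/-, and Nop2, a nucleolar RNA methyltransferase, had 8859, 9152 and 9353 reads against 3528, 3500 and 3684. Mxd4, which opposes Myc, was 6.06-fold higher in Sirt6-/-. Mitochondrial ribosomal proteins had 51 of 77 members higher in Atm-/- (66.2%) and 2 in Sirt6-/- (2.6%), and proteasome subunits 35 of 45 (77.8%) and 1 (2.2%), with medians of 0.33 and 0.31. The proteins of the cytosolic ribosome did not follow. Of 84 tested, 19 (22.6%) were higher in Atm-/- and 38 (45.2%) in Sirt6-/-, with a median of -0.08 and no member at 2-fold.

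Glycolytic enzymes, of interest because SIRT6 is known to hold them down, leaned to Atm-/- in the members called, while their median lay near that of all genes. The study reports glycolytic genes raised in both knockouts, which a direct contrast of the lines cannot show. Of 20 tested core enzymes, 9 (45.0%) were higher in Atm-/- and 4 (20.0%) in Sirt6-/-, with a median log2 fold change of 0.05 and a mean of 0.18. Gapdh had 123424, 132209 and 123719 reads in Atm-/- against 83656, 85759 and 86687 in Sirt6-/- and was 1.41-fold higher in Atm-/-. Hk2 and Eno3, a hexokinase and the muscle enolase, were 1.68-fold and 1.76-fold higher, and Bpgm and Aldoc 2.60-fold and 6.17-fold higher in Atm-/-. Ldhb, the lactate dehydrogenase subunit that favours pyruvate, went the other way with 1557, 1981 and 1610 reads against 7849, 8512 and 9002 (log2 fold change -2.37 ± 0.07, edgeR adjusted p = 6.75e-18). Ldha, the partner subunit, overlapped between the groups, with 33870, 36555 and 32923 reads against 31818, 34503 and 33828 (edgeR adjusted p = 0.583). Per length, Ldha was at 696 ± 28.2 RPKM in Atm-/- and 678 ± 28.9 in Sirt6-/-, and Ldhb at 40.0 ± 4.92 and 198 ± 10.7 (SD, n = 3).

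Carriers of glucose and lactate and the regulators of glycolysis had 12 of 30 tested members higher in each line. Slc2a1, the general glucose carrier, was 1.32-fold higher in Atm-/-, and Slc2a3, the high-affinity carrier, had 256, 219 and 237 reads in Atm-/- against 14, 9 and 0 in Sirt6-/-. Slc16a3, which exports lactate, was 3.49-fold higher in Atm-/-. Pdk1 and Pdk2, the kinases that keep pyruvate out of mitochondria, were 2.32-fold and 4.06-fold higher in Sirt6-/-. Hypoxia response genes had 23 of 33 tested members higher in Sirt6-/- (69.7%) and 6 in Atm-/- (18.2%), with a median log2 fold change of -0.48. Angptl4, Adm and Ddit4, which act in lipid uptake, on vessels and on mTOR, were 9.61-fold, 6.15-fold and 3.14-fold higher in Sirt6-/-, and Car12, a carbonic anhydrase, was 5.72-fold higher in Atm-/-. Subunits of the respiratory chain and ATP synthase had 40 of 74 tested members higher in Atm-/- (54.1%) and 15 in Sirt6-/- (20.3%), with a median of 0.21.

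Sterol synthesis genes were nearly all higher in Sirt6-/-. Of 27 tested, 24 (88.9%) were higher in Sirt6-/- and 3 (11.1%) in Atm-/-, with a median log2 fold change of -0.86. Hmgcs1, which makes the precursor of mevalonate, had 5854, 5627 and 4937 reads in Atm-/- against 18992, 17748 and 19918 in Sirt6-/-, a log2 fold change of -1.86 ± 0.05. Mvd and Fdps, further down the mevalonate branch, were 2.90-fold and 2.93-fold higher, and Tm7sf2 of the sterol branch 5.70-fold higher. Ebp, a sterol isomerase, was 1.41-fold higher in Atm-/-. The sterol regulatory element core TCACNCCAC was found before Hmgcs1 only, that is for 1 of 20 tested members with a promoter sequence (5.0%), against 1.22% of the genes searched. Genes of fatty acid synthesis and oxidation had 29 of 43 tested members higher in Sirt6-/- (67.4%) and 10 in Atm-/- (23.3%). Acss2 and Cpt1a, which activate acetate and bring fatty acids into mitochondria, were 4.59-fold and 3.09-fold higher in Sirt6-/-, and Decr1, an enzyme of unsaturated fatty acid oxidation, had 857, 956 and 756 reads in Atm-/- against 67, 45 and 62.

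Of the sirtuins other than Sirt6, which the genotype sets, Sirt1 and Sirt7 were 1.24-fold and 1.5-fold higher in Atm-/-, and Sirt3 and Sirt4 were 1.43-fold and 1.32-fold higher in Sirt6-/-. Sirt3 lost its call without Atm-/- replicate 1 (edgeR adjusted p = 0.0529), and Sirt4 without Atm-/- replicate 1 or Sirt6-/- replicate 2 (edgeR adjusted p = 0.079 and 0.0998). Among NAD genes 7 of 18 tested were higher in Atm-/- (38.9%) and 5 in Sirt6-/- (27.8%). Nnmt, the nicotinamide methyltransferase, had 113, 106 and 110 reads in Atm-/- against 0, 2 and 2 in Sirt6-/-. Histone and DNA modifying enzymes had 30 of 71 members higher in Atm-/- (42.3%) and 26 in Sirt6-/- (36.6%), close to the background. The catalytic subunits of Polycomb complex PRC2 differed in opposite directions. Ezh2, the form of dividing cells, had 4414, 4212 and 3889 reads in Atm-/- against 1884, 1847 and 1910 in Sirt6-/-, and Ezh1 had 430, 440 and 510 against 2301, 2256 and 2251. Per length, Ezh2 was at 47.8 ± 2.54 RPKM and Ezh1 at 3.33 ± 0.367 in Atm-/- cells, and in Sirt6-/- cells they were at 21.7 ± 0.242 and 16.5 ± 0.472 (SD, n = 3).

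The cell type label was checked against marker genes. Of 15 tested fibroblast markers, 11 were higher in Sirt6-/- and 2 in Atm-/-, and the 16 listed summed to 10313 to 10513.6 CPM in Atm-/- and 22640.4 to 22999.1 CPM in Sirt6-/-. Vim, the intermediate filament of mesenchyme, was not called, with 98109, 98832 and 97637 reads against 92016, 90389 and 93596 (log2 fold change 0.03 ± 0.03, edgeR adjusted p = 0.428), while Prrx1, a factor of limb mesenchyme, was 2.26-fold and Pdgfrb 4.96-fold higher in Sirt6-/-. Thy1, a surface marker used to sort fibroblasts, had 2874, 3200 and 2970 reads in Atm-/- against 1, 33 and 12 in Sirt6-/-. Lum had 0 reads in each Atm-/- sample and 8, 7 and 6 in Sirt6-/-. The Sirt6-/- line thus lacked most Thy1 and both lines lacked most Lum. Markers of blood stayed at 4.0 to 4.4 CPM in Atm-/- and 4.0 to 4.9 CPM in Sirt6-/-. Of the skeletal muscle markers 6 of 7 had at most 3 reads in each sample, among them Myod1 and Pax7, and so had 4 of 5 adipocyte markers, among them Adipoq and Lep. The markers of pluripotent and germ cells summed to 40.7 to 48.7 CPM in Atm-/- and 1.5 to 1.8 CPM in Sirt6-/-, made up mainly of Sox2 and of the germ cell helicase Ddx4 (706, 853 and 756 reads against 8, 1 and 8), with Pou5f1, Zfp42, Dppa5a and Dazl at no more than 3 reads. Cartilage markers summed to 77.2 to 93.8 CPM in Atm-/- and 275.9 to 330.1 CPM in Sirt6-/-, but went both ways, with 2 of 6 tested higher in each line. The part of these marker differences in the matrix, junction and patterning results was not tested.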

How the data were processed

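RNA-Seq was performed on oligo(dT)-selected mRNA from MEFs. Per the file headers, the authors deposited for each sample the read count per gene, a whole number without normalization, and an RPKM, which they made from that count, the listed transcript length and a read total. The submitters' processing notes give the build mm10, and the aligner and the counter are not given in the sources used here. Samples were grouped by genotype label. The 6 knockout samples were fitted without WT in edgeR 4.0.16 under R 4.3.3 (filterByExpr, TMM, glmQLFit, glmQLFTest), with Benjamini-Hochberg adjustment over all 13460 tested genes and a threshold of 0.05. The log2 fold change is Atm-/- minus Sirt6-/-, its SE was taken from the test statistic, and values of genes with few reads in 1 genotype depend on the prior count. Deposited RPKM served only for levels compared between genes. The procedure was tried on simulated data in which far fewer genes differed than here, so it was not checked for a case where most genes differ.

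The 60 gene families, 11 marker lists and their members were chosen with earlier results of these data known, and no list was tested as a set. Genes were named as follows: Atm, Sirt6 and Trp53; the 10 highest and 10 lowest log2 fold changes among called genes whose groups did not overlap, provided their average log2 CPM reached 3; up to 3 genes per family and direction under the same conditions; any member of a family of at most 30 tested genes; and the markers. Other genes were named after their values were seen, including the rest of the Hox genes, Cxcl3, Csf1, Il16, Mmp8, Mmp12, Nfkb2, Nfkbia and Ifit1. Some genes that met these conditions are not reported here. Positions are from GENCODE M21, which held 95.0% of listed genes, and promoter sequences from RefSeq. Alternatives were other size factors and filters, the replicate number as a block, leaving out each sample, all 9 samples in 1 fit, DESeq2 1.42.0, the exact test of edgeR, voom of limma 3.58.1, another prior count and a 2-fold threshold.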

Additional observations from a re-analysis of the deposited data

How the results depend on the processing

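Genes called numbered 9896 to 10007 when each sample was left out in turn, with 4960 to 5039 higher in Atm-/- and 4879 to 4989 higher in Sirt6-/-. Over the other size factors, filters and tests they numbered from 9202 (mean of at least 50 counts, 11758 genes tested) to 10690 (no filter on low counts, 17491 tested), and under no setting did a called gene change sign. DESeq2's Wald test called 10031 genes. A 2-fold threshold left 3433 genes, 1523 higher in Atm-/- and 1910 higher in Sirt6-/-. Library totals without TMM moved the median of all genes by 0.0588 and gave 5549 genes higher in Atm-/- and 4679 higher in Sirt6-/-. Families with more members higher in Atm-/- numbered 29 to 34 over all settings, and 29 to 33 when samples were left out. The mean of a family differed in sign from its median in 13 families, each taken relative to that of all tested genes. Between 2 and 7 family medians changed sign when a sample was left out. Of these families Notch genes had the largest median, 0.255 above that of all genes. Their median changed sign without Atm-/- replicate 1 or Sirt6-/- replicate 2. The Hox median moved most, by 2.69 with a mean of at least 50 counts and by 1.26 without Sirt6-/- replicate 2, and kept its sign. The log2 fold change of Ldha, which was not called, was 0.035 under library totals without TMM and -0.0553 to 0.0091 when samples were left out. With samples left out, the log2 fold change of Hey1 was -0.3661 to 0.2684 and the log2 fold change of Mmp12 was -0.228 to 0.2052, neither called. Same-numbered samples of the genotypes deviated together weakly (r of 0.15, 0.021 and 0.012, mean 0.061), against a mean of -0.03 for different numbers. With 3 samples per genotype this cannot settle whether the numbers pair the samples. A model blocked on the replicate number called 10157 genes, 5092 higher in Atm-/- and 5065 higher in Sirt6-/-. Genes with few reads in 1 line are limited by depth, since a sum of 3 reads in a library is 0.0902 to 0.0932 CPM.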

Other observations

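Several further families were examined. NRF2, glutathione and antioxidant genes had 28 of 48 tested members higher in Sirt6-/- (58.3%) and 16 higher in Atm-/- (33.3%). The extracellular superoxide dismutase Sod3 had 665, 692 and 636 reads in Atm-/- against 3534, 3688 and 3907 in Sirt6-/-, while the glutathione transferases Mgst1 and Gsta4 were 14.5-fold and 8.92-fold higher in Atm-/-. Circadian clock genes had 15 of 24 tested members higher in Sirt6-/- (62.5%) and 6 higher in Atm-/- (25.0%). Rora, an activator of the clock gene Arntl, was 15.9-fold higher in Sirt6-/- and its relative Rorb had 157, 201 and 134 reads in Atm-/- against 2, 2 and 2. Among YAP/TAZ and CCN genes, 19 of 39 were higher in Atm-/- and 14 in Sirt6-/-. Ctgf (Ccn2), the best known target of YAP, had 14863, 12272 and 17087 reads in Atm-/- against 3526, 3054 and 3145 in Sirt6-/-, and its relative Wisp2 (Ccn5) had 164, 117 and 150 against 7106, 7887 and 8144.

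Smooth muscle and contractile genes had 15 of 36 tested members higher in each line. Acta2, the actin of myofibroblasts, was 1.66-fold higher in Sirt6-/- and Itga7, a laminin receptor of muscle, 5.03-fold higher in Atm-/-. Adipogenic genes also had 10 of 23 higher in each line. Pparg, the master regulator of fat cells, had 156, 145 and 176 reads in Atm-/- against 43, 35 and 36 in Sirt6-/-, and angiotensinogen (Agt) had 2, 5 and 6 against 1113, 1531 and 1314. Adhesive and matricellular glycoproteins had 15 of 31 higher in each line, with Nid2 of the basement membrane 17.7-fold higher in Sirt6-/- and nephronectin (Npnt) 6.09-fold higher in Atm-/-. Integrins and laminins had 14 of 33 higher in Atm-/- and 13 in Sirt6-/-, and the collagen receptor subunit Itga2 was 18.4-fold higher in Atm-/-. Of the syndecans and glypicans 5 of 9 were higher in Sirt6-/-, Gpc4 by 4.86-fold. TCA cycle genes had 17 of 38 higher in Atm-/- and 11 in Sirt6-/-, with pyruvate carboxylase (Pcx) 4.35-fold higher in Sirt6-/-.

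MHC class I and antigen processing genes had 11 of 23 higher in Sirt6-/- and 9 in Atm-/-, and the peptide transporter gene Tap1 was 3.39-fold higher in Sirt6-/-. Heat shock proteins and DnaJ chaperones (36 of 83 higher in Atm-/-, 31 in Sirt6-/-), autophagy and lysosome genes (31 and 38 of 87), ATF4 response genes and tRNA synthetases (23 and 15 of 44) and pentose phosphate pathway enzymes (5 and 4 of 12) went both ways. Among the growth brakes around p53, INK4 and RB, 15 of 27 were higher in Atm-/- and 9 in Sirt6-/-. Of 66 listed clustered histone genes only 17 passed the filter and 1 was called in each direction. In the remaining marker lists, bone markers summed to 82.4 to 85.4 CPM in Atm-/- and 33.0 to 35.9 CPM in Sirt6-/-. Smooth muscle and pericyte markers summed to 942.1 to 1212.2 and 1537.1 to 1886.4 CPM, with 3 of 6 tested higher in each line. Neural markers summed to 108.9 to 118.1 and 82.6 to 90.7 CPM, with 2 of 5 tested higher in each line. Endothelial markers summed to 51.8 to 55.8 and 43.0 to 45.1 CPM, and adipocyte markers to 13 to 17.5 and 14.1 to 19 CPM. Skeletal muscle markers summed to at most 1.5 CPM in any sample.

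The WT samples, which belong to no comparison above, give a reference level for each gene. Of the 1910 genes at least 2-fold higher in Sirt6-/-, the WT mean was nearer to the Atm-/- mean for 1518 (79.5%) and nearer to the Sirt6-/- mean for 392 (20.5%) on the log2 scale. Of the 1523 genes at least 2-fold higher in Atm-/-, it was nearer to Atm-/- for 760 (49.9%) and nearer to Sirt6-/- for 763 (50.1%). The WT mean lay below both knockout means for 938 genes of the first group and 406 of the second, above both for 147 and 466, and between them for 825 and 651. WT and the knockout cells may differ in origin, and these counts were not tested.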
